A study of Mus musculus with 3 samples.

Results

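The cytochrome P450 genes outside bile acid synthesis were described in 3 mouse RNA samples, a spleen given SiO2 and 3TF-3C, a normal liver and a spleen given SiO2. The members were all mouse genes whose symbol starts with Cyp and a digit, without pseudogenes and without the bile acid enzymes Cyp7a1, Cyp7b1, Cyp8b1, Cyp27a1 and Cyp39a1. The gene table held 95 such genes, and 87 of them had a usable named probe among the 20542 named genes of the array. The SiO2-3TF-3C spleen and the SiO2 spleen both came from female mice, were treated with SiO2 (silica) and were taken on day 82. They differ by the 3TF-3C treatment, which the labels do not spell out. The liver, also female and untreated as far as the labels say, was included as a positive control, and the design text speaks of 5 samples pooled per group. Strain and age of the mice, and how the agents were delivered, are not given in the sources used here.

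Cytochromes P450 are haem enzymes that insert oxygen into their substrates. Members of families 1 to 3 mostly oxidise drugs, other foreign compounds and steroids, and in mammals the hepatocyte is their main site. Family 4 acts chiefly on fatty acids and eicosanoids, and the remaining families make or clear steroid hormones, vitamin D, retinoic acid and cholesterol. The microsomal enzymes receive electrons from P450 reductase (Por), and many of their genes lie in tandem rows of close paralogs.

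Each sample was measured on 1 single-colour Agilent array, so no group has a replicate and no test or spread between animals can be given. A level below is the log2 processed signal minus the 75th percentile of its array, and a difference is one level minus another. Levels of different genes come from different probes and are not set against each other. A value after ± is a technical error, built from the signal errors of the scanner files, which ran from 0.204 to 0.445 over the members and leaves out the spread between animals. A gene counts as higher or lower when it differed by at least 2-fold. Where a probe was well above background on only 1 of 2 arrays, the difference is a bound, given as at least a stated fold. The level of the dim side is given for orientation, and medians count a bound at its stated value. Hepatocyte markers checked the labels. All 12 were well above background in the SiO2-3TF-3C spleen (levels from 1.06 to 6.06) and in liver (3.53 to 6.98), while in the SiO2 spleen 9 were, and levels of all 12 ran there from -6.28 to 0.71. The liver array also held signal of lymphoid and spleen genes, which bears on every comparison with it. The B cell gene Ms4a1 had levels of 4.82 in the SiO2-3TF-3C spleen, 4.06 in liver and 5.38 in the SiO2 spleen. All 6 B cell markers and the 3 spleen regulators Tlx1, Nkx2-5 and Nkx2-3 were well above background in liver. Tlx1, Nkx2-5 and Nkx2-3 differed there from the SiO2 spleen by -1.66, -1.22 and -1.25. The part of this signal in the liver values was not tested, and it does not enter the difference between the spleens.

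The SiO2-3TF-3C spleen had a large set of liver-type P450 transcripts that were lower in the SiO2 spleen. By the probe that represents each gene, 78 of the 87 members were well above background in the SiO2-3TF-3C spleen, 80 in liver and 66 in the SiO2 spleen. In all, 62 members were so on all 3 arrays and 15 in the SiO2-3TF-3C spleen and liver without the SiO2 spleen. The genes Cyp11b2, Cyp2a22 and Cyp2u1 were well above background in liver alone. Their levels there were -5.07, -3.52 and -4.25, where the lowest level above background was -5.57. In the SiO2 spleen alone, Cyp2b19, Cyp2c65 and Cyp4a30b were so, at -5.86, -5.90 and -5.60, close to its lowest level above background (-6.04). Cyp2ab1 was so in both spleens but not in liver, and Cyp11a1, Cyp4a29 and Cyp4x1 were not well above background on any array.

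Of 81 members with a difference between the SiO2-3TF-3C spleen and the SiO2 spleen, 43 were at least 2-fold higher, 1 was lower and 37 lay between. Of those 37, 34 were measured on both arrays and 3, Cyp2b19, Cyp2c65 and Cyp4a30b, have only a bound toward lower (-0.29, -0.29 and -0.59). Among all 17636 genes compared, 5.24% were higher and 1.39% were lower. The median log2 difference was 1.89 over the members and -0.15 over all genes. Bounds make up 18 of the 81 values, and the 63 members measured on both arrays had a median of 0.87. Sizes depend on the background correction. With normexp correction all 43 higher members had smaller differences, by -3.01 to -0.34, and their median was 3.37 in place of 5.54. The difference became 7.02 in place of 10.04 for Cyp2c68, 5.10 in place of 6.90 for Cyp2e1 and 2.94 in place of 5.54 for Cyp1a2. A bound therefore holds for the correction used here and can be lower with another. Fewer cells of a type and less RNA per cell cannot be told apart in such bulk samples. The 12 hepatocyte markers differed in the same comparison by a median of 8.81, and their part in the P450 values was not tested.

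**Figure D1:**
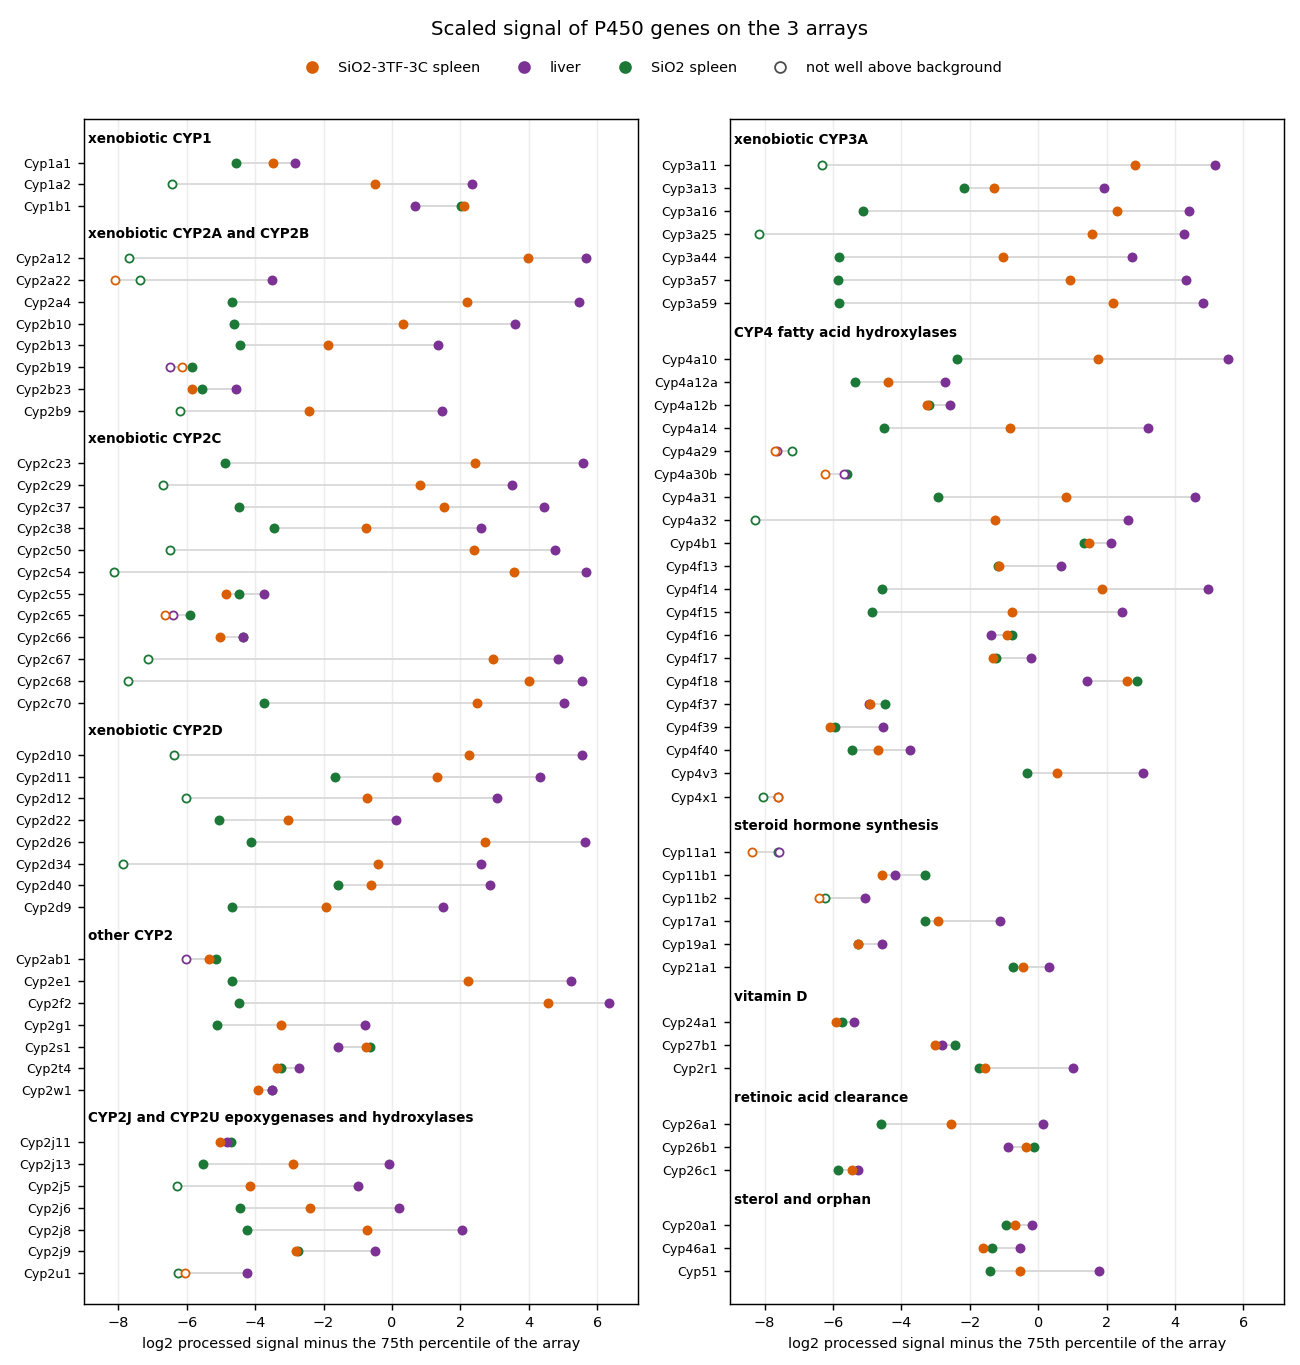
Levels of the 87 P450 genes by role, in log2 processed signal minus the 75th percentile of the array. Each gene has 1 point per array for the SiO2-3TF-3C spleen, liver and the SiO2 spleen, open where the probe was not well above background. In the CYP2A, CYP2C, CYP2D and CYP3A blocks most points of the SiO2-3TF-3C spleen lie between those of liver and those of the SiO2 spleen, while in the steroid hormone and vitamin D blocks the points of both spleens lie close together.

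Within the CYP1 family, which oxidises planar aromatic compounds, the 3 genes went different ways. Cyp1a2, the hepatocyte enzyme that clears caffeine, had levels of -0.50 in the SiO2-3TF-3C spleen, 2.34 in liver and -6.44 in the SiO2 spleen. It was dim in SiO2 spleen alone and at least 46.6-fold higher in SiO2-3TF-3C spleen. Cyp1a1, the enzyme most strongly induced through the aryl hydrocarbon receptor, had levels of -3.49, -2.85 and -4.57 in the SiO2-3TF-3C spleen, liver and the SiO2 spleen. Its difference between the spleens was 1.08 ± 0.25, just past 2-fold, and 0.41 with normexp background correction. Cyp1b1, which acts mainly outside the liver and hydroxylates oestrogens, had levels of 2.11 in the SiO2-3TF-3C spleen, 0.66 in liver and 2.02 in the SiO2 spleen. It was alike in both spleens to within 0.09 ± 0.20 and lower in liver than SiO2 spleen, by a difference of -1.36 ± 0.20.

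CYP2A and CYP2B enzymes hydroxylate steroids and drugs, and 5 of 7 members with a difference between the spleens were higher in SiO2-3TF-3C spleen, with a median of 3.62. Cyp2a12, a testosterone hydroxylase of mouse liver, had levels of 3.96 in the SiO2-3TF-3C spleen, 5.68 in liver and -7.69 in the SiO2 spleen. The SiO2 spleen was dim, and the bound for the SiO2-3TF-3C spleen was at least 1027-fold higher. Cyp2a4, another testosterone hydroxylase, had levels of 2.20, 5.46 and -4.67 in the SiO2-3TF-3C spleen, liver and the SiO2 spleen, with a difference between the spleens of 6.87 ± 0.24. Its second probe gave 4.45. Cyp2a22 was seen in liver alone, at -3.52, and was not well above background in either spleen. Cyp2b10, the gene through which phenobarbital induction is usually followed, had levels of 0.32 in the SiO2-3TF-3C spleen, 3.61 in liver and -4.61 in the SiO2 spleen, and was 30.5-fold higher in SiO2-3TF-3C spleen than SiO2 spleen. Cyp2b9 and Cyp2b13 are female-predominant liver genes in mice. Cyp2b9 was at -2.42 in the SiO2-3TF-3C spleen, 1.47 in liver and dim at -6.22 in the SiO2 spleen, a bound of at least 12.3-fold between the spleens. For Cyp2b13 the difference between the spleens was 2.58 ± 0.24. Cyp2b23 differed by -0.30, and Cyp2b19, dim in the SiO2-3TF-3C spleen, has only a bound of -0.29.

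The CYP2C subfamily, with many drug oxidases and arachidonic acid epoxygenases had 9 of 12 members with a difference higher in SiO2-3TF-3C spleen than SiO2 spleen. The median of the 12 was 6.54. Cyp2c68 had levels of 3.997 in the SiO2-3TF-3C spleen, 5.57 in liver and a dim -7.71 in the SiO2 spleen, and was at least 1052-fold higher in SiO2-3TF-3C spleen than SiO2 spleen. For Cyp2c54 the bound was at least 777-fold, although its second probe, well above background on all 3 arrays, gave a difference of 4.41. Bounds for Cyp2c67, Cyp2c50 and Cyp2c29 were at least 513-fold, 348-fold and 115-fold. Cyp2c29, a mouse epoxygenase of central hepatocytes, had levels of 0.81 in the SiO2-3TF-3C spleen, 3.51 in liver and -6.69 in the SiO2 spleen, where it was dim. Among genes measured in both spleens, Cyp2c23 differed by 7.32 ± 0.25, Cyp2c70 by 6.23 ± 0.22, Cyp2c37 by 6.01 ± 0.23 and Cyp2c38 by 2.68 ± 0.21. Cyp2c70, the mouse enzyme that makes muricholic acids, had levels of 2.48 in the SiO2-3TF-3C spleen, 5.01 in liver and -3.76 in the SiO2 spleen. The members known from the mouse intestine were not among the higher ones. Cyp2c55 was at -4.87 in the SiO2-3TF-3C spleen, -3.73 in liver and -4.48 in the SiO2 spleen. Cyp2c66 was at -5.03, -4.36 and -4.36 in the SiO2-3TF-3C spleen, liver and the SiO2 spleen, and Cyp2c65 was well above background in the SiO2 spleen alone, at -5.90. Cyp2c55 and Cyp2c66 lay within 2-fold between the spleens, and Cyp2c65 has only a bound of -0.29.

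CYP3A enzymes oxidise the widest range of drugs, and 6 of 7 members were higher in SiO2-3TF-3C spleen than SiO2 spleen, with a median of 7.44. Cyp3a11, the main CYP3A of adult mouse liver and a target of the pregnane X receptor, had levels of 2.83 in the SiO2-3TF-3C spleen, 5.17 in liver and -6.34 in the SiO2 spleen. It was dim in SiO2 spleen and at least 468-fold higher in SiO2-3TF-3C spleen. Cyp3a59 differed by 8.004 ± 0.34, Cyp3a16 by 7.44 ± 0.26, Cyp3a57 by 6.77 ± 0.33 and the female-predominant Cyp3a44 by 4.80 ± 0.34. Cyp3a25 was dim in SiO2 spleen and at least 195-fold higher. Cyp3a16, in mice a CYP3A of fetal and young liver, had levels of 2.31 in the SiO2-3TF-3C spleen, 4.42 in liver and -5.12 in the SiO2 spleen. Cyp3a13 is the exception, with levels of -1.30 in the SiO2-3TF-3C spleen, 1.93 in liver and -2.17 in the SiO2 spleen with a difference between the spleens of 0.87 ± 0.21. Its second probe was dim in the SiO2 spleen and gave a bound of at least 5.37 on the log2 scale, so the call for Cyp3a13 rests on the choice of probe.

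The CYP2C and CYP3A rows held the matches to a hepatocyte-factor motif in their promoters. The 250 bases before each start were searched on both strands for CAAAGTCCA, a motif of the type bound by HNF4A, in the RefSeq promoters of build GRCm38.p6, which hold 76 of the 95 members. The motif was found in 5 of 39 promoters (12.8%) of members higher in SiO2-3TF-3C spleen than SiO2 spleen. It was in 1 of 34 promoters (2.94%) of members with a difference that were not higher, and in 0.384% of all 32851 promoters. Members without a difference between the spleens are in neither group. Among them Cyp2c40, Cyp2c69, Cyp3a41a and Cyp3a41b, which had no usable probe, also hold the motif. Paralogs share promoter sequence, so these promoters are not independent, and a match is a description of letters, not a site in use. The promoters of Cyp2c68 (chr19:39741102-39741351), Cyp2c70 (chr19:40187287-40187536) and Cyp3a11 (chr5:145879855-145880104), all on the minus strand, are shown because these genes differed widely between the spleens and hold the motif 77, 64 and 109 bases before the start. That of Cyp2c65 (chr19:39060756-39061005, plus strand) is shown because it holds the motif 116 bases before the start and was not higher. The motif is in capitals.
Cyp2c68: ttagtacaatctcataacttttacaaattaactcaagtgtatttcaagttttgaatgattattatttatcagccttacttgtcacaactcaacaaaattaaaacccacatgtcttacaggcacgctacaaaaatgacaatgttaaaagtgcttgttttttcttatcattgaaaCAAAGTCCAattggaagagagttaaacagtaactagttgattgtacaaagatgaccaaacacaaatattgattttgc
Cyp2c70: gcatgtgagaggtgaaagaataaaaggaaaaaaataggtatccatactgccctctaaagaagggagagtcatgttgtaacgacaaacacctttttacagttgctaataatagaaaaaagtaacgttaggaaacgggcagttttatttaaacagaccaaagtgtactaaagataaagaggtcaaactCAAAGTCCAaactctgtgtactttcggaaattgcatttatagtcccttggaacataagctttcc
Cyp3a11: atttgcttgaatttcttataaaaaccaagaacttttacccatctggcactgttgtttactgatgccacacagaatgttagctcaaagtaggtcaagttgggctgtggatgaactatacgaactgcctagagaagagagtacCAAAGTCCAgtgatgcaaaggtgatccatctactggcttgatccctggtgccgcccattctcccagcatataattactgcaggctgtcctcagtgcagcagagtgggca
Cyp2c65: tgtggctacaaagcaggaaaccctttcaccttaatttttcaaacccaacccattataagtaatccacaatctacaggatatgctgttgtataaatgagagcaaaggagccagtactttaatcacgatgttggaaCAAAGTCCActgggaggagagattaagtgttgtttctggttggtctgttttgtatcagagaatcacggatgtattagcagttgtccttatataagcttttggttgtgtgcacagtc
The same motif lay 125 bases before the start in Cyp2c67 and 99 in Cyp3a16. The letters TATAAA of the TATA box were sought on either strand and at any place in the 250 bases. They were in 46.2% of the promoters of higher members, in 20.6% of those of members with a difference that were not higher, and in 12.4% of all promoters. Cyp2a5, Cyp2a22, Cyp3a41a and Cyp3a41b, which are in neither group, also hold these letters. The core of the aryl hydrocarbon receptor motif, GCGTG, was in 15.4%, 29.4% and 28.2%, in the same order. The C/EBP-type motif TTGCGCAA and the DR1-type nuclear receptor repeat were in 0 promoters of members with a difference, and in 0.164% and 0.0335% of all promoters.

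CYP2D genes, which oxidise basic drugs, were higher in SiO2-3TF-3C spleen than SiO2 spleen for 7 of 8 members, with a median of 4.13. Cyp2d26 had levels of 2.73 in the SiO2-3TF-3C spleen, 5.64 in liver and -4.13 in the SiO2 spleen, a difference between the spleens of 6.85 ± 0.22. Cyp2d10 was at 2.24, 5.55 and a dim -6.37 in the SiO2-3TF-3C spleen, liver and the SiO2 spleen, and at least 311-fold higher in SiO2-3TF-3C spleen. Cyp2d12 was at least 39.0-fold higher and Cyp2d34 at least 49.3-fold, while the second probe of Cyp2d34 was dim in the SiO2-3TF-3C spleen and showed no such difference. Cyp2d11, Cyp2d9 and Cyp2d22 differed by 2.98, 2.75 and 2.01. Cyp2d40 differed by 0.98 ± 0.21, just short of 2-fold, and had levels of -0.61 in the SiO2-3TF-3C spleen, 2.86 in liver and -1.60 in the SiO2 spleen.

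The other CYP2 genes split sharply, with 3 of 7 higher in SiO2-3TF-3C spleen and a median of -0.11. Cyp2f2, the naphthalene-activating enzyme of periportal hepatocytes and airway club cells, had levels of 4.56 in the SiO2-3TF-3C spleen, 6.34 in liver and -4.47 in the SiO2 spleen. Its 9.03 ± 0.23 was the largest difference between the spleens among members measured on both arrays, and the airway marker Scgb1a1 differed by -0.07. Cyp2e1, the ethanol- and paracetamol-oxidising enzyme of central hepatocytes, had levels of 2.21 in the SiO2-3TF-3C spleen, 5.24 in liver and -4.69 in the SiO2 spleen, a difference between the spleens of 6.90 ± 0.24. Cyp2g1, known from the olfactory mucosa, differed by 1.87 ± 0.27. Cyp2ab1, Cyp2s1, Cyp2t4 and Cyp2w1 differed by -0.22, -0.11, -0.13 and -0.39, all within 2-fold.

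CYP2J and CYP2U enzymes convert arachidonic acid, and 4 of 6 members with a difference were higher in SiO2-3TF-3C spleen than SiO2 spleen, with a median of 1.96. Cyp2j8 had levels of -0.73 in the SiO2-3TF-3C spleen, 2.04 in liver and -4.24 in the SiO2 spleen, a difference between the spleens of 3.51 ± 0.22. Cyp2j13 differed by 2.61 and Cyp2j6 by 2.04, and Cyp2j5, a liver and kidney epoxygenase of mice, was at least 3.70-fold higher. Both other probes of Cyp2j13 gave -0.50. Cyp2j9 had levels of -2.82 in the SiO2-3TF-3C spleen, -0.49 in liver and -2.74 in the SiO2 spleen. It was thus alike in the spleens (-0.08 ± 0.21) and 4.76-fold higher in liver than SiO2 spleen. Cyp2j11 differed by -0.32 between the spleens. Cyp2u1 was dim in both spleens.

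Among the CYP4 fatty acid hydroxylases, 6 of 18 members with a difference were higher in SiO2-3TF-3C spleen than SiO2 spleen, with a median of 0.46, and the subfamilies differed. Cyp4a10 and Cyp4a14 are targets of the fatty acid receptor Ppara. Cyp4a10 had levels of 1.76 in the SiO2-3TF-3C spleen, 5.54 in liver and -2.37 in the SiO2 spleen, a difference between the spleens of 4.14 ± 0.21. Its other probes gave at least 7.54 and 0.77. Cyp4a14 had levels of -0.81, 3.21 and -4.50 in the SiO2-3TF-3C spleen, liver and the SiO2 spleen, a difference between the spleens of 3.68 ± 0.24. Cyp4a31 differed by 3.73 ± 0.21 and Cyp4a32 was at least 27.4-fold higher. The male-predominant Cyp4a12a and Cyp4a12b differed by 0.97 ± 0.30 and -0.06 ± 0.21, neither reaching 2-fold. In the CYP4F subfamily Cyp4f14 and Cyp4f15 differed by 6.42 ± 0.26 and 4.09 ± 0.26, and the other 7 members by less than 2-fold. Cyp4f14 had levels of 1.86 in the SiO2-3TF-3C spleen, 4.96 in liver and -4.56 in the SiO2 spleen. Cyp4f18, which inactivates leukotriene B4 in mouse neutrophils, had levels of 2.60 in the SiO2-3TF-3C spleen, 1.44 in liver and 2.88 in the SiO2 spleen. Both spleens were above liver, and they differed from each other by -0.28 ± 0.20. Cyp4v3 differed by 0.90 and Cyp4b1, a lung enzyme, by 0.14.

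**Figure D2:**
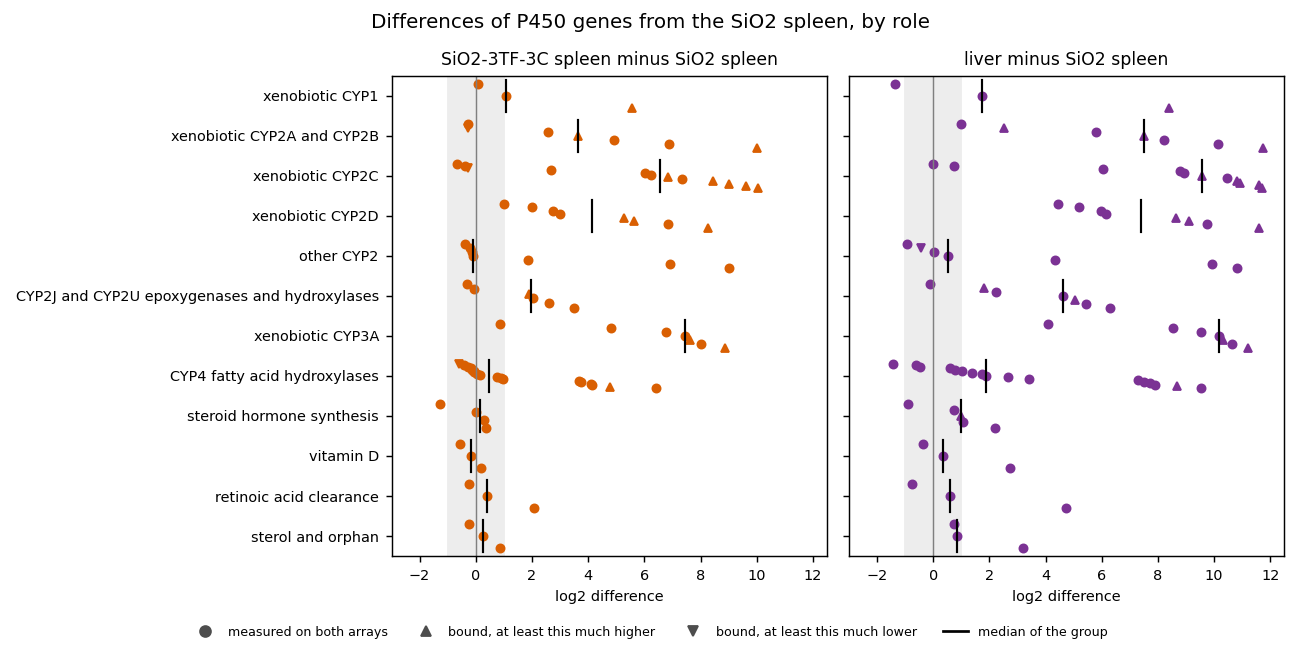
Log2 differences of the P450 genes by role, for the SiO2-3TF-3C spleen minus the SiO2 spleen at left and liver minus the SiO2 spleen at right. Points are genes measured on both arrays, triangles are bounds, black lines are group medians and the grey band is less than 2-fold. In the left panel the CYP2C and CYP3A medians are 6.54 and 7.44, whereas the steroid hormone, vitamin D and sterol groups lie near 0.

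Most enzymes of hormone, vitamin and sterol metabolism lay within 2-fold between the spleens. Of 4 steroid hormone enzymes with a difference, 0 were higher and 1 was lower in SiO2-3TF-3C spleen than SiO2 spleen. The lower one was Cyp11b1, which completes corticosterone synthesis in the adrenal, with levels of -4.58 in the SiO2-3TF-3C spleen, -4.20 in liver and -3.31 in the SiO2 spleen with a difference between the spleens of -1.27 ± 0.23. With normexp background correction that difference was -0.44. Cyp17a1, which turns progestogens into androgen precursors, was at -2.92 in the SiO2-3TF-3C spleen, -1.10 in liver and -3.30 in the SiO2 spleen, within 2-fold between the spleens (0.37 ± 0.21) and 4.57-fold higher in liver than SiO2 spleen. Aromatase (Cyp19a1) had levels of -5.28, -4.55 and -5.28 in the SiO2-3TF-3C spleen, liver and the SiO2 spleen, and Cyp21a1 differed by 0.30 between the spleens. Cyp11a1, the enzyme that starts steroid synthesis, was not well above background on any array. Among 8 markers of adrenal and gonadal steroid cells, 1 of 7 with a difference (Mrap, 1.51) was higher in SiO2-3TF-3C spleen, against 5.24% of all genes. Mrap had levels of 0.85 in the SiO2-3TF-3C spleen, 4.26 in liver and -0.65 in the SiO2 spleen.

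The 3 vitamin D enzymes differed by less than 2-fold between the spleens. Cyp2r1, which makes the circulating form, had levels of -1.56 in the SiO2-3TF-3C spleen, 1.01 in liver and -1.74 in the SiO2 spleen, 6.69-fold higher in liver than SiO2 spleen. Cyp27b1, which activates it, and Cyp24a1, which breaks it down, differed by -0.58 ± 0.21 and -0.17 ± 0.40 between the spleens. Of the retinoic acid hydroxylases, Cyp26a1 was higher in SiO2-3TF-3C spleen, with levels of -2.54 in the SiO2-3TF-3C spleen, 0.13 in liver and -4.60 in the SiO2 spleen with a difference between the spleens of 2.06 ± 0.26. Cyp26b1 and Cyp26c1 differed by -0.24 ± 0.20 and 0.40 ± 0.40. Cyp51, the demethylase of cholesterol synthesis, had levels of -0.55 in the SiO2-3TF-3C spleen, 1.78 in liver and -1.42 in the SiO2 spleen. It differed by 0.87 ± 0.20 between the spleens and was 9.16-fold higher in liver than SiO2 spleen. The orphan enzyme Cyp20a1 and the brain cholesterol hydroxylase Cyp46a1 differed by 0.26 and -0.25 between the spleens.

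Liver, set against the same SiO2 spleen array, was higher for 58 of 81 members with a difference and lower for 2, with a median of 4.63. Among all 17355 genes compared, 15.4% were higher, 17% were lower and the median was -0.14. The members lower in liver were Cyp1b1 and Cyp4f18, at -1.36 and -1.44. Every one of the 8 CYP2D and 7 CYP3A members was higher in liver, with medians of 7.40 and 10.17, as were 9 of 11 CYP2C members, with a median of 9.55. Among CYP4 genes 12 of 17 were higher. Cyp2a12 was at least 3375-fold higher in liver than SiO2 spleen, and Cyp2f2 had the largest measured difference, 10.80 ± 0.23. With normexp the median of the 58 higher members was 5.57 in place of 7.51. This comparison shares the SiO2 spleen array with that between the spleens, so an error of that array enters both.

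The direct comparison of the SiO2-3TF-3C spleen with liver does not use the SiO2 spleen array. Most members were lower in SiO2-3TF-3C spleen than liver. Of 81 with a difference, 59 were lower, 2 were higher and 20 lay between (19 measured, and Cyp2ab1 with only a bound), with a median of -2.34. Among all 17209 genes compared, 15.9% were lower and 10.7% were higher, with a median of -0.03. Cyp1b1 and Cyp4f18 were the higher ones, by 1.45 ± 0.20 and 1.16 ± 0.20. The lowest difference was that of Cyp4a14, at -4.02 ± 0.20, which puts its signal in the SiO2-3TF-3C spleen at 6.16% of that in liver. Cyp4a32, Cyp2b9 and Cyp2d12 stood at 6.72%, 6.77% and 7.14% of liver, and Cyp2e1 and Cyp1a2 at 12.2% and 14.0%. Cyp1a1 had 64.1%, Cyp2c68 33.7%, Cyp2a12 30.4%, Cyp2f2 29.2% and Cyp2c67 26.8% of the liver signal. The low-signal genes Cyp2c66, Cyp2c55 and Cyp2b23 had 63.2%, 45.6% and 41.2% of it. By subfamily the median difference from liver was -3.78 for CYP4A, -3.25 for CYP2B, -3.24 for CYP2D, -2.70 for CYP3A, -2.68 for CYP2J, -2.36 for CYP2C and -1.11 for CYP4F. The 12 hepatocyte markers had a median difference from liver of -1.77, with a range from -3.48 for Apoa1 to -0.19 for Alb. All 8 CYP2D members lay between -3.81 and -2.91, and the 7 CYP3A members between -3.75 and -2.10.

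**Figure D3:**
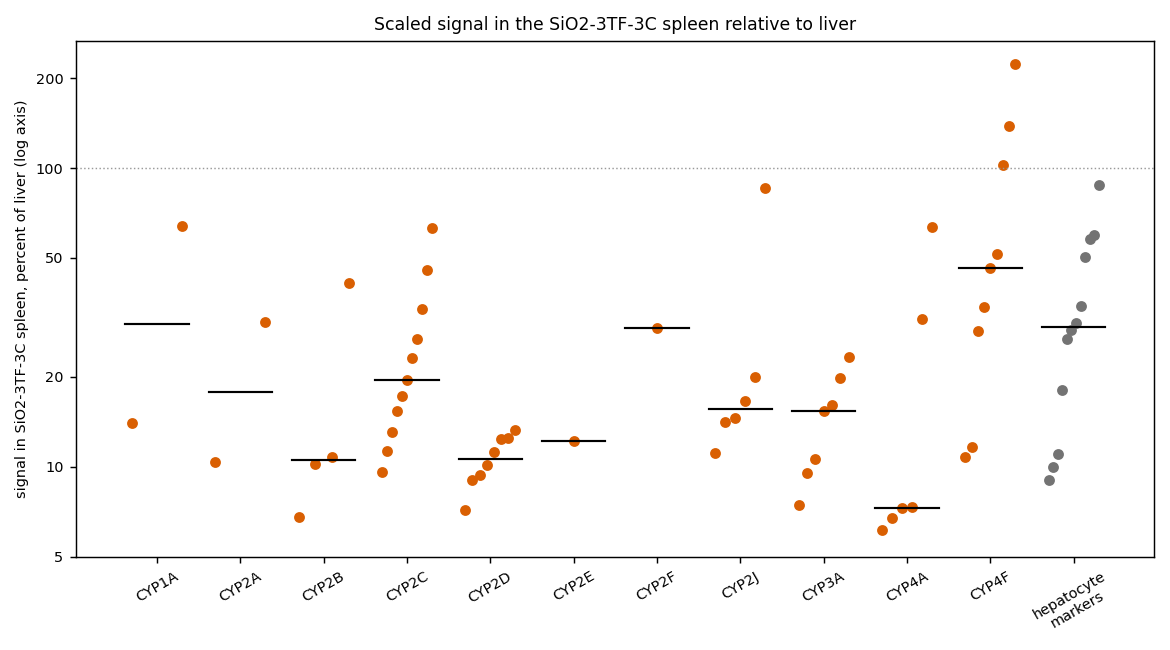
Scaled signal in the SiO2-3TF-3C spleen as a percent of that in liver, on a log axis, for genes well above background on both arrays. Each point is 1 gene, lines are medians and the dotted line marks equal signal. The CYP4A median is the lowest of those plotted, Cyp4f18 lies at 223%, and the hepatocyte markers run from 8.99% to 87.9%.

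Zonation and sex lists gave further views of the same genes. Of 5 pericentral genes 4 were on the array (Cyp1a2, Cyp2e1, Cyp3a11 and Cyp2c29), which mark hepatocytes around the central vein. They were all higher in SiO2-3TF-3C spleen than SiO2 spleen, with a median of 6.88, and had a median of -2.77 against liver. The values of Cyp1a2, Cyp3a11 and Cyp2c29 between the spleens are bounds, so the 6.88 is a lower limit. Cyp2f2, the periportal one, differed by 9.03, measured on both arrays, and by -1.78, and a contrast between the zones was not tested. Of 8 female-predominant genes 4 were on the array, and these 4 were higher in SiO2-3TF-3C spleen than SiO2 spleen. Their median was 4.21, a lower limit because the value of Cyp2b9 is a bound. Of 3 male-predominant genes 1 was higher (Cyp2d9, 2.75), and the median was 0.97. Beside these counts between the spleens, 43 of 81 P450 members and 5.24% of all genes were higher. All samples were from female mice, so the lists describe the levels and compare no sexes.

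Many of the higher genes lay in runs of P450 genes on their chromosomes. In the order of the RefSeq gene table, 72 members form 8 runs of at least 3 members with at most 5 other coding genes between neighbours. Of the 60 run members with a difference between the spleens, 40 were higher and 0 lower in the SiO2-3TF-3C spleen. Outside the runs, 3 of 21 were higher (Cyp2c23, Cyp2e1 and Cyp26a1) and 1 was lower (Cyp11b1). Among all genes compared between the spleens, 5.24% were higher and 1.39% were lower. On chromosome 5 all 6 CYP3A genes of the run with a difference were higher (Cyp3a11 and Cyp3a25 by bounds), and on chromosome 15 so were 7 of 8 CYP2D genes. Chromosome 19 had an uneven run. Its first 3 CYP2C genes, Cyp2c55, Cyp2c65 and Cyp2c66, were not higher. The 8 genes with a difference after them, from Cyp2c29 to Cyp2c70, were all higher, by at least 2.68 on the log2 scale. The values of Cyp2c29, Cyp2c67, Cyp2c68, Cyp2c54 and Cyp2c50 are bounds. On chromosome 17 Cyp4f15 and Cyp4f14, consecutive members with 4 other coding genes between them, were higher, and the other 6 members of the run, among them Cyp4f40 on one side (0.77) and Cyp4f13 on the other (0.05), differed by less than 2-fold. The run on chromosome 7 had 7 of 11 higher, with Cyp2b10, Cyp2b13, Cyp2b9, Cyp2a4, Cyp2g1, Cyp2a12 and Cyp2f2 above 2-fold and Cyp2s1, Cyp2b23, Cyp2b19 and Cyp2t4 not higher. Both runs on chromosome 4 were mixed, with 4 of 6 CYP2J genes and 4 of 8 CYP4 genes higher.

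**Figure D4:**
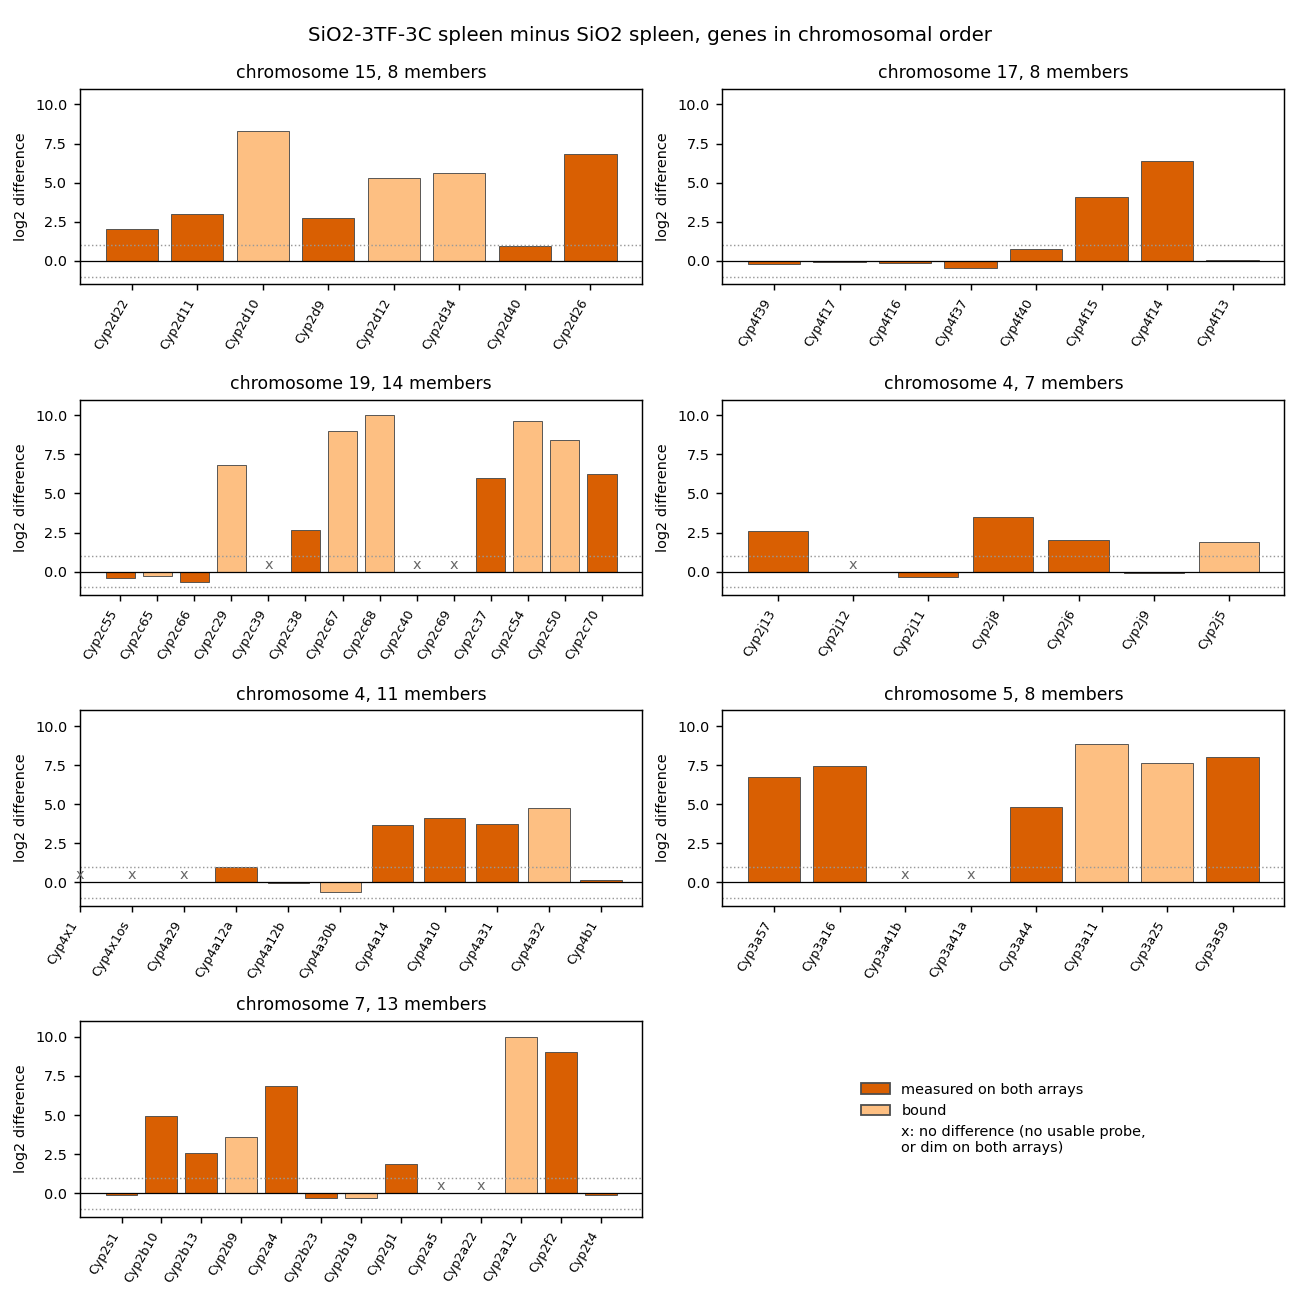
Log2 differences of the SiO2-3TF-3C spleen minus the SiO2 spleen for the 7 longest runs of neighbouring P450 genes, in chromosomal order. Dark bars were measured on both arrays, light bars are bounds, x marks genes with no difference, and dotted lines mark 2-fold. On chromosome 19 Cyp2c55, Cyp2c65 and Cyp2c66 lie below 0 and every following bar is above the 2-fold line, and on chromosome 17 Cyp4f15 and Cyp4f14 are above it.

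Close paralogs may share a probe's signal, and the array's probe sequences are not used here, so which probes may cross-hybridise was not tested on sequence. Leaving out every subfamily with at least 4 members removes the genes most open to it. Of the 25 remaining members with a difference between the spleens, 6 were higher, or 24.0%, against 5.24% of all genes, and the median was 0.18. Probes of the same gene offer another view. Of 13 members with several probes, 11 had at least 2 with a difference between the spleens. In 10 of these the values, bounds among them, spanned over 1 on the log2 scale. A bound toward higher that lies below a measured value does not contradict it, as in Cyp2c38, Cyp2j6 and Cyp3a59. Between the SiO2-3TF-3C spleen and liver, 2 of 11 spanned as much, among them Cyp2d34 through a bound. The widest span between the spleens was that of Cyp4a10, whose probes spanned 6.77. In Cyp2c38 the second probe, dim in the SiO2 spleen, gave a bound of 0.97 where the brighter gave 2.68, and for Cyp4a31 the others gave 2.15 and a bound of 0.80 beside 3.73. Cyp3a59 had a second probe with a bound of 3.76 beside 8.004, and Cyp2r1 was the member whose probes agreed most closely, at 0.18 and 0.49. Cyp2c39 and Cyp3a41b have 1 spot each, flagged on the liver array, and stand outside all counts. Their unflagged spots on the spleen arrays gave at least 74.6-fold and at least 186-fold higher signal in SiO2-3TF-3C spleen than SiO2 spleen. Cyp2j12, Cyp4x1os, Cyp3a41a, Cyp2a5, Cyp2c40 and Cyp2c69 had no named probe.

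**Figure D5:**
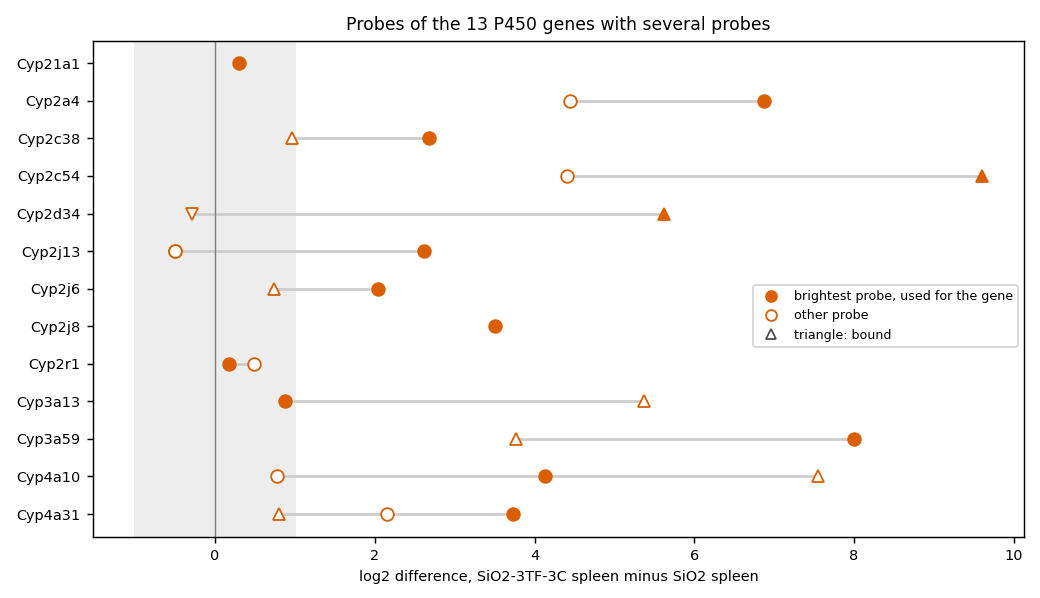
Log2 differences of the SiO2-3TF-3C spleen minus the SiO2 spleen for each probe of the 13 P450 genes with several probes. Filled symbols are the brightest probe, which represents the gene, open symbols are other probes, triangles are bounds and the grey band is less than 2-fold. The filled symbol of Cyp3a13 lies at 0.87 and its open triangle at 5.37, and the probes of Cyp4a10 span 0.77 to 7.54.

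Of the genes that work with P450 enzymes, 1 of 9 partners, 3 of 9 haem enzymes and 5 of 17 regulators were higher in SiO2-3TF-3C spleen than SiO2 spleen, against 5.24% of all genes. Por had levels of 3.17 in the SiO2-3TF-3C spleen, 5.23 in liver and 3.00 in the SiO2 spleen, alike in the spleens (0.17 ± 0.20) and 4.71-fold higher in liver than SiO2 spleen. Of 9 electron donors and partners, 1 was higher in SiO2-3TF-3C spleen than SiO2 spleen (Pgrmc1, 1.43 ± 0.20, a haem-binding partner of P450 enzymes), and Cyb5r3, the reductase of cytochrome b5, came next at 0.93. In liver 7 of the 9 were higher than in the SiO2 spleen, beside 15.4% of all genes. Of 9 enzymes of haem synthesis 3 were higher in SiO2-3TF-3C spleen (among them Alad at 1.35 and Cpox at 1.21), and Alas1, the rate-limiting enzyme in liver, differed by -0.11.

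Of 17 regulators of P450 genes, 5 were higher in SiO2-3TF-3C spleen than SiO2 spleen, and the list's median was -0.27. Hnf4a, which sets hepatocyte transcription, had levels of 2.49 in the SiO2-3TF-3C spleen, 5.68 in liver and -5.88 in the SiO2 spleen, a difference between the spleens of 8.37. The bile acid receptor Nr1h4 differed by 4.48 and Ppara by 3.996. The pregnane X receptor Nr1i2 had levels of -2.82, 0.29 and -5.73 in the SiO2-3TF-3C spleen, liver and the SiO2 spleen, a difference between the spleens of 2.91 ± 0.34. The constitutive androstane receptor Nr1i3, which acts on CYP2B genes, had levels of -0.65, 1.38 and -0.09, and the aryl hydrocarbon receptor Ahr had -0.12, 1.47 and 0.17, in the same order. Both differed by less than 2-fold between the spleens, at -0.55 and -0.29. Against liver, 12 of the 17 regulators were lower in SiO2-3TF-3C spleen, beside 15.9% of all genes, with Ppara at 5.12% of its liver signal.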

How the data were processed

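RNA of the 3 samples was purified with a blood RNA kit, depleted of globin messages and labelled with Cy3, per the labels' protocols. The authors deposited 1 scanner file per array, with linear intensity after background subtraction, extracted with Feature Extraction 11.0.1.1 for design 026655 and build mm9 per the file headers; the submitters' processing notes name version 9.1. The authors' deposited series table holds log2 values (r with the own array from 0.993 to 0.996) in 26049 rows, with equal column medians (5.91). Sources used here do not give their normalization.

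Control and outlier-flagged spots were removed (in SiO2-3TF-3C spleen, liver and SiO2 spleen 283, 469 and 182 of 43020), and spots of a probe were averaged. Of 43020 spots, 81.3%, 77.2% and 79.9% were well above background in the same order and 0 were saturated. Levels are log2 intensity minus the array's 75th percentile. Of 39112 probes 27032 (69.1%) were named through RefSeq accessions on GRCm38.p6, a build used for names, gene order and promoters alone. The brightest probe represents a gene. In a bound the dim side is the higher of its own level and the array's lowest level above background (-6.20, -5.57 and -6.04). All 3 arrays were scanned together. With 1 array per group there is no test, and genes are described by size (2-fold); the number of arrays limits the precision. Members and gene lists were chosen with earlier results of these data known. Genes named by rule were, per comparison, the 10 highest and 6 lowest measured differences and the 6 largest bounds in each direction, the top members of each role group, and a set of anchors; other genes were named after their values were seen, and a few list genes and 1 promoter motif are not reported here. The alternatives were normexp (offset 50, on the median signal, with limma 3.58.1 in R 4.3.3), scaling by housekeeping genes or by the array median, quantile normalization, the values of the authors' deposited table, other probe choices, other filters and a 4-fold threshold. Computation used Python 3.11.15. The calls were tried on simulated arrays in which only genes well above background were changed, so the bounds were not tested there.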

Additional observations from a re-analysis of the deposited data

How the results depend on the processing

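No paired analysis was possible because each group has 1 array. No median of the P450 members changed sign under any alternative run, and a count has no direction to change. The 43 members higher in SiO2-3TF-3C spleen than SiO2 spleen were 53.1% of 81 compared (5.24% of all genes). Where all 3 arrays were well above background, 28 of 62 were higher, or 45.2% (4.27% of all genes). Without subfamilies of at least 4 members 6 of 25 were, or 24.0% (5.24% of all genes). The other alternatives gave 34 to 48. The 34, from the authors' deposited values, were 56.7% of 60 members compared (5.37% of all genes). The 1 lower member was 0 with normexp, with the authors' deposited values (whose table has no row for its probe) and at 4-fold. The median of 1.89 became 0.81 with normexp, 0.98 with no filter on dim probes, 0.89 on genes above background on all 3 arrays, 0.18 without those subfamilies and 0.97 with the dimmest probe of each gene, an alternative chosen after seeing the data. For liver against the SiO2 spleen, 12 of 27 members were higher without those subfamilies, or 44.4% (15.4% of all genes). Before, 58 of 81 were, or 71.6%. The 2 lower ones were 0 with the authors' deposited values, 1 without those subfamilies and 0 at 4-fold. The median of 4.63 became 3.07 with normexp, 4.98 with the authors' deposited values and 4.10 with no filter. It became 2.97 on genes above background on all 3 arrays, 0.83 without those subfamilies and 3.72 with the dimmest probe. For the SiO2-3TF-3C spleen against liver, the 2 higher members were 0 with the authors' deposited values (which list neither probe). They were 1 without those subfamilies and 0 at 4-fold. The 59 lower of 81 were 12 of 27 without those subfamilies, against 15.9% of all genes. The median of -2.34 became -1.99 with normexp, -2.11 with no filter and -0.73 without those subfamilies. Scaling to housekeeping genes moved the median of all genes between the spleens to -0.01 and gave the 48. Over all members compared under both settings, normexp took 6 higher calls between the spleens (Cyp1a1, Cyp2d22, Cyp2g1, Cyp2j13, Cyp2j5 and Cyp2j6) and that of Cyp11b1. The dimmest probe took 7 (Cyp2c38, Cyp2d34, Cyp2j13, Cyp2j6, Cyp2j8, Cyp4a10 and Cyp4a31). Of these, Cyp2c38, Cyp2j6 and Cyp4a31 kept bounds of at least 0.97, 0.73 and 0.80, which do not exclude 2-fold. The dimmest probe of Cyp2j8 was dim on all 3 arrays and gave no difference. Scaling to housekeeping genes added 5 (Cyp2d40, Cyp3a13, Cyp4a12a, Cyp4v3 and Cyp51). Cyp3a13 also passed with the authors' deposited values (5.30) and as the mean over probes (4.16). Normexp took 6 higher calls of liver against the SiO2 spleen and 8 lower calls of the SiO2-3TF-3C spleen against liver. Where a signal lies near background, its level and so the size of a difference are limited by the background correction.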

Other observations

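P450 pseudogenes with a probe, which the counts leave out, were examined in the same way. Cyp2d37-ps had levels of -0.86 in the SiO2-3TF-3C spleen, 3.15 in liver and a dim -7.83 in the SiO2 spleen, and was at least 36.3-fold higher in SiO2-3TF-3C spleen than SiO2 spleen. Cyp2d13, a transcribed pseudogene of the CYP2D row, had levels of -4.08, -0.74 and -5.62 in the SiO2-3TF-3C spleen, liver and the SiO2 spleen, a difference between the spleens of 1.53. Both stand beside CYP2D genes of like sequence, and signal shared between them was not tested. Cyp4b1-ps2 had levels of -0.59 in the SiO2-3TF-3C spleen, -2.26 in liver and -1.55 in the SiO2 spleen. It was 3.17-fold higher in SiO2-3TF-3C spleen than in liver, and its difference between the spleens, 0.97, was short of 2-fold. Its parent gene Cyp4b1 differed by 0.14 between the spleens.

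A few marker genes of organs other than liver were higher in SiO2-3TF-3C spleen than SiO2 spleen, in lists of which most members were within 2-fold or dim. Amy2a5, of the pancreatic acinus, differed by 2.46, Fabp2, of the intestinal epithelium, by 3.08, and Cdh16, of the kidney tubule, by 1.51, each the 1 higher member of its list. Fabp2 and Amy2a5 had levels of 2.58 and -0.82 in liver. Of 5 adipocyte and 4 airway markers with a difference between the spleens, 0 were at least 2-fold higher. Among all genes compared between the spleens 5.24% were higher, so lists this short can hold 0 or 1 such gene without being unusual. These counts are a description by size with no test.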
